A study of Mus musculus with 14 samples.

Results

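The genes described here are the Wnt ligands, their receptors and their antagonists in bone marrow adipose tissue (BMAT) of the mouse. They were chosen by symbol, as the Wnt, Fzd, Sfrp, Dkk and Rspo families together with Lrp5, Lrp6, Axin2, Sost, Notum, Wif1 and Frzb. Of 48 such symbols in the gene annotation, 40 were among the 23441 genes of the deposited count matrix. These 40 comprised 13 Wnt ligands, 4 R-spondins, 12 receptors and co-receptors, 10 antagonists and the feedback gene Axin2. The other 8 (Wnt1, Wnt3, Wnt3a, Wnt7a, Wnt8a, Wnt16, Dkk4 and Sost) had totals of 0 to 14 reads over all 14 libraries.

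The tissue was the distal tibial marrow plug of male C57BL6/SJL mice aged 24 weeks, with plugs of a pair of mice pooled for each library. In BMAd-Pnpla2-/- mice the lipase ATGL, which starts the breakdown of stored triglyceride, was deleted from bone marrow adipocytes (BMAds), and BMAd-Pnpla2+/+ mice kept it. Mice of both genotypes carried the same driver, an Osterix-FLPo allele that turns on a Cre placed in the Adipoq locus, and this insertion lowers adiponectin protein in controls too. Mice were fed ad libitum (AL) or received 30% caloric restriction (CR) for 6 weeks, singly housed and fed in the evening. There were 4 libraries of BMAd-Pnpla2+/+ AL, 4 of BMAd-Pnpla2+/+ CR, 3 of BMAd-Pnpla2-/- AL and 3 of BMAd-Pnpla2-/- CR.

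Wnt ligands are lipid-modified secreted proteins that bind Frizzled receptors. With the co-receptors Lrp5 and Lrp6 they stabilise β-catenin, which then works with TCF/LEF factors on target genes, while other Wnt ligands such as Wnt5a act mainly without β-catenin. R-spondins raise the sensitivity of cells to Wnt by sparing Frizzled receptors from removal, and secreted antagonists bind the ligand (Sfrp proteins, Wif1, Frzb), block the co-receptor (Dkk1, Sost) or remove the lipid of the ligand (Notum). In marrow the pathway is known for favouring osteoblasts over adipocytes from shared progenitors.

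Counts of both strands were used, at 18658806 to 21339006 reads in matrix genes per library. Strand was ignored because the 3 BMAd-Pnpla2-/- CR libraries carried no strand information. In them 50.2% ± 0.22 (SD, n = 3) of strand-assigned reads were on the strand opposite to the gene. Group means elsewhere were 4.42% to 4.51%. All libraries of that group and none of the others were like this. In comparisons that use that group, a difference in library preparation cannot be told apart from diet or genotype. Counting both strands does not remove such a difference. Levels are counts per 1000000 reads (CPM) on library sizes scaled by TMM. A gene was called where its adjusted p from edgeR's quasi-likelihood test was under 0.05 over the 17494 genes tested. Pnpla2 itself, the check of the genotype, was at 305, 176, 202 and 192 CPM fed AL and 816, 1006, 1029 and 509 CPM under CR in BMAd-Pnpla2+/+ plugs. In BMAd-Pnpla2-/- plugs it was at 137, 172 and 133 CPM fed AL and 179.6, 222 and 271 CPM under CR. It was lower in every knockout library than in every control library of the same diet, with a log2 fold change of -1.91 ± 0.26 (SE, edgeR adjusted p = 0.0387) under CR and -0.57 ± 0.25 (unadjusted p = 0.0378, not called) fed AL. All 6 adipocyte markers (Adipoq, Plin1, Cidec, Lipe, Fabp4 and Car3) were present in every library. Marrow cells were there too, since neutrophil markers summed to 5955 to 17491 CPM and erythroid markers to 9773 to 47680 CPM.

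Levels ranged widely within each class. Per kilobase of exon, the best represented ligand was Wnt4, whose mean in BMAd-Pnpla2+/+ plugs was 1.55 CPM per kb fed AL and 3.07 under CR, followed by Wnt5b at 0.888 and 1.57. Ligands of the canonical class that osteoblast studies often use, Wnt1, Wnt3a and Wnt7a, were among the symbols outside the matrix, and Wnt7b was at 0 in all 7 AL libraries. The leading receptors stood above every ligand. In the same plugs Fzd4 was at 7.29 CPM per kb fed AL and 26.4 under CR, Lrp5 at 11.1 and 18.6, and Fzd1 at 5.6 and 14.5. Antagonists reached the same range, with Sfrp4 at 18 and 7.02 CPM per kb and Wif1 at 16.2 and 15.5. Sost, the antagonist made by osteocytes, had 8 reads in all 14 libraries together, and the 4 osteocyte markers summed to 29.4 to 71.8 CPM. Among the R-spondins, Rspo3 led at 1.6 and 4.82 CPM per kb.

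**Figure D1:**
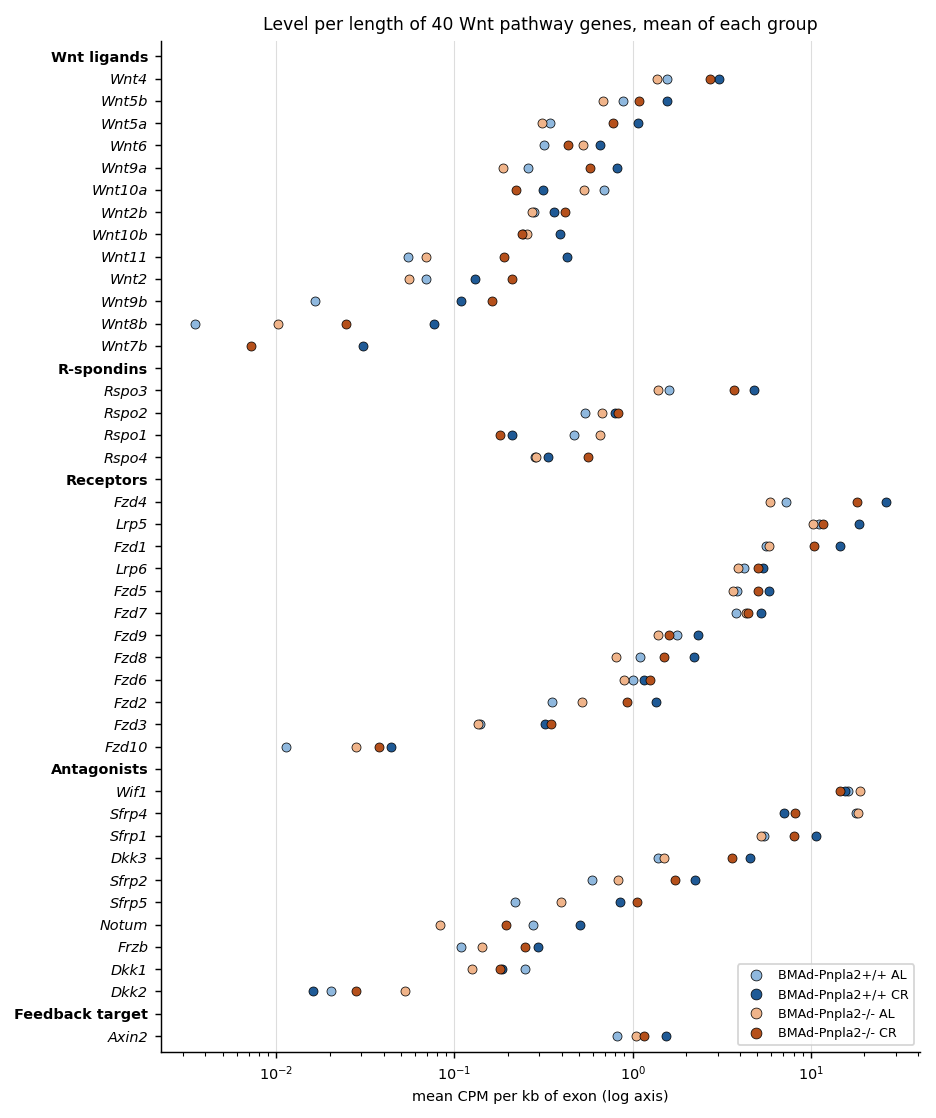
Mean level of each of the 40 genes in the 4 groups, in CPM per kb of exon on a log axis, ordered by level within each class. Points at 0 (Wnt7b in both AL groups and Wnt9b in BMAd-Pnpla2-/- AL) cannot be drawn; Fzd4, Lrp5, Wif1 and Sfrp4 lie highest and Wnt7b, Wnt8b, Dkk2 and Fzd10 lowest.

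Promoter sequence is shown for Wnt11, the ligand with the largest fitted change under CR in BMAd-Pnpla2+/+ plugs, and for Wnt4 and Fzd4, which rose in both genotypes. The windows run from 250 bases before to 50 bases after a RefSeq start site of assembly GRCm38.p6, read 5′ to 3′ on the strand of the gene, with the letters ATCAAAG, a core to which TCF/LEF factors bind, in capitals.
Wnt11 (chr7:98834862-98835161, plus strand): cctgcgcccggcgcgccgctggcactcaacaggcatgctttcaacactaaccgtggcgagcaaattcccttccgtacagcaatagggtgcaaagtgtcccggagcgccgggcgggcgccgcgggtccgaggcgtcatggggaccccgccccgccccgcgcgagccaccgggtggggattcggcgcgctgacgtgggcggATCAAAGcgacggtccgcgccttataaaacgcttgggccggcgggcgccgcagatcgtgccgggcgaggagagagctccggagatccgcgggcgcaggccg
Wnt4 (chr4:137277385-137277684, plus strand): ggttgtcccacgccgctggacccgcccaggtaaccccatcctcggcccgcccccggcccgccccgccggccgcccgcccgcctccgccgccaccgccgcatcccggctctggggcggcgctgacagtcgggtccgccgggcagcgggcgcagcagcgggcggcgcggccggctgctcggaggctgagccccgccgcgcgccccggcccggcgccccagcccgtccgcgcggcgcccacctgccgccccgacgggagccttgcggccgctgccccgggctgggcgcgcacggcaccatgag
Fzd4 (chr7:89404116-89404415, plus strand): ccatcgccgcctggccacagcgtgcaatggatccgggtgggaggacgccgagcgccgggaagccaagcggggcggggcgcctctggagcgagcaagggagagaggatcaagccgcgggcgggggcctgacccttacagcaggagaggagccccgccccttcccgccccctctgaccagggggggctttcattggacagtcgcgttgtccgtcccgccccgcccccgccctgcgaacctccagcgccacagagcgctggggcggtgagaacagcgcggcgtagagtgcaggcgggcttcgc
ATCAAAG or its reverse complement CTTTGAT was searched on both strands. It was in 1 of these 3 windows, that of Wnt11, where it starts 51 bases before the start site. A TATAAA begins 29 bases before the same start and does not overlap it. Of 28 windows matched to 25 of the 40 genes, 2 held ATCAAAG (1 of the 2 starts of Wnt11 and 1 of the 3 starts of Wnt5b), beside 3.73% of the 32851 promoter windows of the assembly. TATAAA or its reverse complement was in 5 of the 28 and in 13.6% of all windows.

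The first question was what CR did to these genes where BMAds could release their lipid. In BMAd-Pnpla2+/+ plugs 8 of 11 receptors tested, 4 of 10 ligands, Rspo3, Axin2, Dkk3 and 3 Sfrp genes rose, and Sfrp4 fell. Of the 40 genes, 35 passed the filter on low counts, and 5 (Wnt2, Wnt7b, Wnt8b, Fzd10 and Dkk2) did not. Under CR 19 of the 35 were called, beside 26% of all genes tested. They were 18 that rose, beside 15% of all genes, and 1 that fell, beside 10.9%. With a log2 fold change beyond 1 as well there were 13, beside 9.19% of all genes. The median log2 fold change of the 35 was 0.91, and that of all genes was 0.00. Wnt11, Wnt9b, Frzb and Notum reached the filter only through CR libraries, Rspo1 only through AL libraries and Dkk1 only through both together. A gene that enters through one diet alone had to differ to be tested, so the counts over the 35 describe the tested genes and not all 40. Of the called genes this concerns Wnt11 and, in BMAd-Pnpla2-/- plugs, Wnt9b. RNA came from whole plugs, so more cells of a type and more RNA per cell cannot be told apart.

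Of the 10 ligands tested, 4 rose under CR in BMAd-Pnpla2+/+ plugs. Wnt5a, which acts largely outside β-catenin signalling, was at 3.23, 2.46, 2.61 and 2.45 CPM in the AL libraries and 7.25, 10.4, 10.8 and 5.13 CPM in the CR libraries. All 4 CR libraries lay above all 4 AL libraries, and the log2 fold change was 1.64 ± 0.29 (SE, edgeR adjusted p = 0.00304). Wnt11, another ligand of the non-canonical class, was at 0.245, 0.0535, 0.47 and 0.144 CPM fed AL, which is 1 to 9 reads a library, and at 1.78, 2.5, 1.94 and 0.856 CPM under CR, which is 16 to 54 reads. Again the groups did not overlap, and the log2 fold change of 2.93 ± 0.47 (SE, edgeR adjusted p = 0.00203) rests on these low counts. Wnt4, the best represented ligand, was at 7.93, 5.51, 7.57 and 5 CPM fed AL and 11.4, 15.9, 15.1 and 8.99 CPM under CR. Its lowest CR library lay above its highest AL library (log2 fold change 0.98 ± 0.26, SE, edgeR adjusted p = 0.0169). Wnt9a was at 1.22, 0.909, 0.992 and 0.336 CPM fed AL and 3.27, 3.24, 3.29 and 1.07 CPM under CR, a log2 fold change of 1.65 ± 0.50 (SE, edgeR adjusted p = 0.0299). One CR library of Wnt9a lay within the AL range and the other 3 were nearly equal to each other.

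The other 6 ligands tested did not pass. Wnt5b, Wnt6, Wnt9b, Wnt10b and Wnt2b had log2 fold changes of 0.82, 1.05, 2.62, 0.68 and 0.37, with edgeR adjusted p of 0.0864, 0.0891, 0.0734, 0.336 and 0.324. Wnt10a, which is known to hold back adipocyte formation, pointed the other way at -1.13 ± 0.73 (SE, edgeR adjusted p = 0.26), and its 95% interval of -2.69 to 0.44 spans 0. Wnt10b, whose transgene is known to raise bone mass in mice, was at 0.783, 0.214, 0.678 and 1.63 CPM fed AL and 1.44, 2.5, 0.451 and 0.963 CPM under CR, and the groups overlapped. Reads counted for Wnt2b lay mostly on the strand opposite to the gene in libraries that kept strand. Its 0.37 therefore does not measure the ligand's own RNA.

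Rspo3, the leading R-spondin, rose and the other 3 were not called. It was at 6.95, 3.74, 4.91 and 4.13 CPM in the AL libraries and 12.1, 19.2, 19.6 and 8.72 CPM in the CR libraries. The groups were separate, with a log2 fold change of 1.59 ± 0.34 (SE, edgeR adjusted p = 0.0067). Rspo2 and Rspo4 had log2 fold changes of 0.55 and 0.25, and Rspo1 had -1.20, with edgeR adjusted p of 0.278, 0.805 and 0.156.

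Receptors gave the most uniform picture, with 8 of 11 tested higher under CR and all 11 fitted above 0 on the TMM scale. Fzd4, a Frizzled that also serves the ligand Norrin in vessels, was at 67.7, 41.9, 41.8 and 44.7 CPM fed AL and 153, 203, 257 and 96.3 CPM under CR. Every CR library exceeded every AL library (log2 fold change 1.85 ± 0.31, SE, edgeR adjusted p = 0.00261). Fzd1 was at 28.6, 17.8, 24.3 and 23.4 CPM and then at 48, 84.1, 71.6 and 39.6 CPM, a log2 fold change of 1.37 ± 0.26 (SE, edgeR adjusted p = 0.00439). Fzd2 was at 1.66, 1.5, 0.887 and 1.15 CPM and then at 3.03, 9.3, 4.74 and 2.73 CPM, a log2 fold change of 1.92 ± 0.39 (SE, edgeR adjusted p = 0.00563). Neither gene overlapped between diets, although in Fzd2 one CR library was far above the other 3. Fzd3, a Frizzled used in planar polarity, was at 1.91, 2.03, 1.36 and 1.87 CPM fed AL and 3.07, 4.63, 5.59 and 3.26 CPM under CR (log2 fold change 1.21 ± 0.28, SE, edgeR adjusted p = 0.0103). Fzd8 was at 7.78, 5.35, 5.48 and 7.59 CPM fed AL and 10.7, 21.2, 12.7 and 8.29 CPM under CR (log2 fold change 1.01 ± 0.27, SE, edgeR adjusted p = 0.0169). The groups were separate for both.

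The remaining called receptors changed less and overlapped between diets. Lrp5, the co-receptor whose loss gives low bone mass, was at 142, 93, 103 and 94.1 CPM fed AL and 156, 256, 195 and 117 CPM under CR (log2 fold change 0.75 ± 0.22, SE, edgeR adjusted p = 0.0254). Its close relative Lrp6 was at 62.2, 54.9, 54.5 and 60.4 CPM and 67.4, 82.6, 82.7 and 60.9 CPM, a log2 fold change of 0.34 ± 0.12 (SE, edgeR adjusted p = 0.0485) on the TMM scale. Scaling to stromal marker RNA lowered the median of all genes to -0.41 and put Lrp6 at -0.12, a turn of about the size of that common shift. Fzd5 was at 27.2, 26, 24.3 and 28.4 CPM and 32.1, 58.5, 43.2 and 27.3 CPM (log2 fold change 0.61 ± 0.19, SE, edgeR adjusted p = 0.0365). In all 3 the lowest CR library lay inside the AL range. Fzd6, Fzd7 and Fzd9 were not called, at 0.21, 0.46 and 0.38 on the log2 scale with edgeR adjusted p of 0.5, 0.0674 and 0.397.

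**Figure D2:**
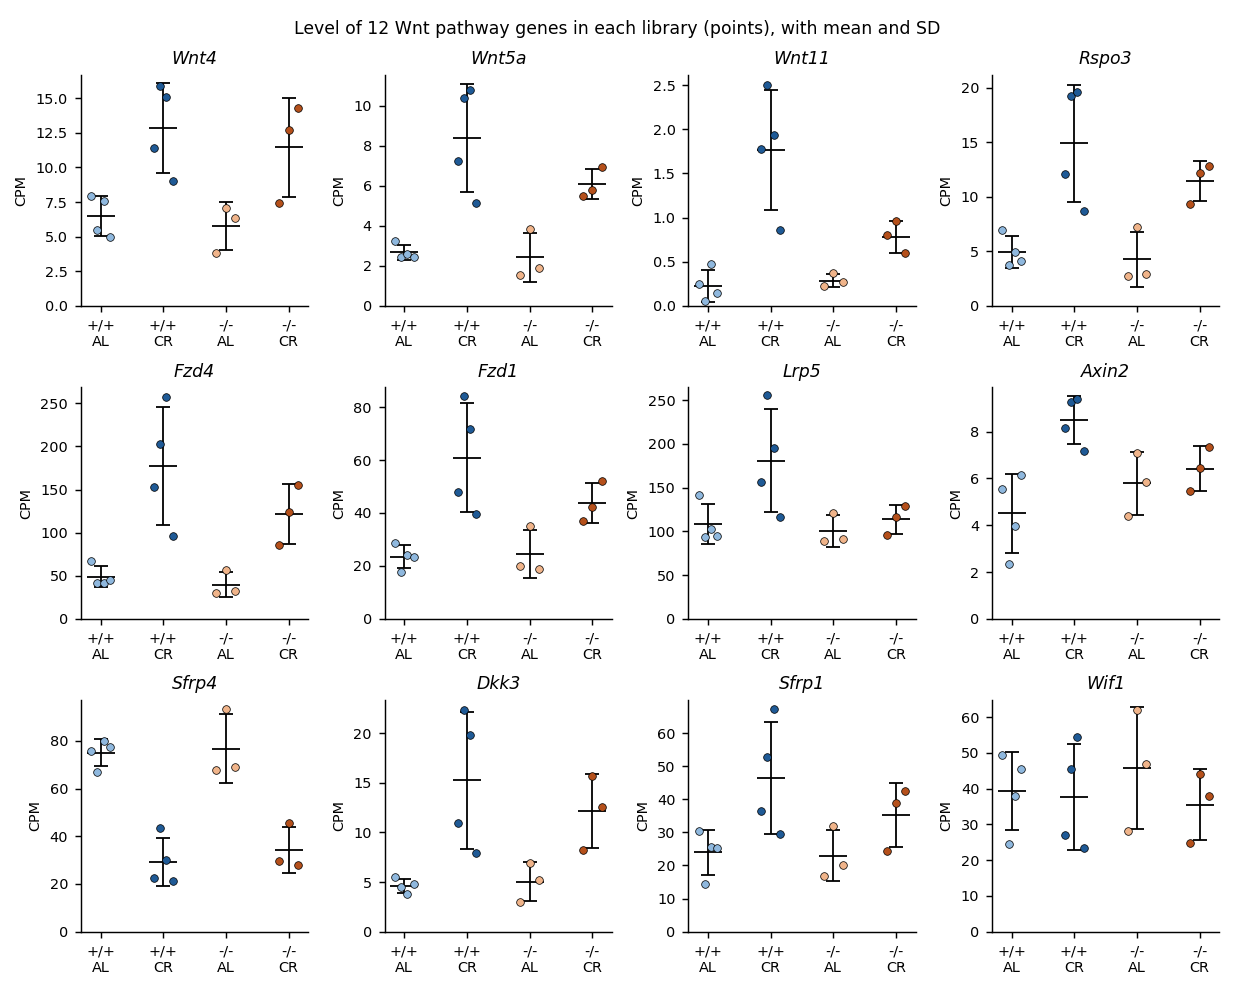
CPM of 12 of the genes in every library (points, linear axes from 0), with the mean and SD of each group of 3 or 4 libraries. Sfrp4 is the panel that goes down under CR in both genotypes; Wif1 overlaps across all groups, and in the other 10 panels BMAd-Pnpla2+/+ CR replicates 2 and 3 are the 2 highest of the 14 points.

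Antagonists moved in both directions. Sfrp4, one of the secreted Frizzled-related proteins, was the single called gene that fell, from 75.9, 67, 80.0 and 77.3 CPM in the AL libraries to 22.6, 43.3, 30.1 and 21.4 CPM in the CR libraries. The spread among AL libraries was small and the groups were well apart, with a log2 fold change of -1.35 ± 0.22 (SE, edgeR adjusted p = 0.00224). Dkk3, a Dickkopf relative that does not act on Lrp5 or Lrp6 like Dkk1, rose from 5.48, 4.55, 3.76 and 4.76 CPM to 11, 22.3, 19.8 and 7.92 CPM (log2 fold change 1.72 ± 0.34, SE, edgeR adjusted p = 0.00522). These groups did not overlap either.

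The other Sfrp genes went the opposite way to Sfrp4. Sfrp1 was at 30.5, 14.5, 25.7 and 25.2 CPM fed AL and 36.4, 52.8, 67.3 and 29.6 CPM under CR, a log2 fold change of 0.96 ± 0.30 (SE, edgeR adjusted p = 0.0335). Sfrp2 was at 1.42, 0.909, 1.83 and 0.913 CPM and 2.45, 8.6, 6.41 and 1.82 CPM, a log2 fold change of 1.93 ± 0.51 (SE, edgeR adjusted p = 0.0183). Sfrp5, which adipose tissue is known to secrete, was at 0.539, 0.321, 0.418 and 0.384 CPM and 0.961, 2.91, 2.08 and 0.481 CPM, a log2 fold change of 1.94 ± 0.60 (SE, edgeR adjusted p = 0.0311). For Sfrp1, Sfrp2 and Sfrp5 the lowest CR library lay within the AL range. Wif1, the antagonist with the highest level per length over the 4 groups, was at 49.3, 24.6, 37.9 and 45.6 CPM fed AL and 27, 45.5, 54.4 and 23.4 CPM under CR. Its groups covered nearly the same range, with a log2 fold change of -0.07 ± 0.32 (SE, edgeR adjusted p = 0.889) and a 95% interval of -0.75 to 0.61. Frzb, Notum and Dkk1 were not called, at 1.42, 0.88 and -0.42 on the log2 scale with edgeR adjusted p of 0.0794, 0.364 and 0.684.

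Axin2, the target gene most often read as a sign of β-catenin signalling and itself a brake on it, rose as well. It was at 5.53, 2.35, 3.97 and 6.15 CPM fed AL and 8.17, 9.25, 9.38 and 7.17 CPM under CR. The 4 CR libraries lay above the highest AL library, with a log2 fold change of 0.91 ± 0.25 (SE, edgeR adjusted p = 0.0198). Several of the genes named here (Sfrp2, Sfrp4, Wnt5a, Wnt9a and Fzd1) stand in gene lists that the study chose on these same samples, so their direction is not independent evidence.

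The rest of the pathway was taken from a list of 70 genes, of which 62 were tested. Under CR in BMAd-Pnpla2+/+ plugs 25 of the 62 rose and 4 fell, with a median log2 fold change of 0.33, where 15% of all genes rose and 10.9% fell with a median of 0.00. The genes for ligand secretion and co-receptors moved most often, with 9 of 11 higher and none called lower. By contrast 1 of 16 genes of the signal relay and destruction complex was called, and its median was 0.02. Of the nuclear factors 5 of 12 rose and 1 fell, and of planar polarity genes 2 of 8 rose.

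Receptors for R-spondins split. Lgr4 rose from 8.47, 8.72, 7.41 and 6.73 CPM to 17.4, 20.4, 23.6 and 10.8 CPM (1.21 ± 0.20, SE, edgeR adjusted p = 0.00268), whereas Lgr5 fell from 8.96, 5.78, 4.23 and 8.94 CPM to 1.39, 4.49, 1.98 and 1.44 CPM (-1.58 ± 0.39, SE, edgeR adjusted p = 0.0133). Lgr5 had one CR library inside the AL range and Lgr4 had none. Lgr6 had 0 to 14 reads a library and was not tested. Of the E3 ligases that remove Frizzled receptors, Znrf3 rose by 0.76 ± 0.14 on the log2 scale (SE, edgeR adjusted p = 0.00404), and Rnf43 was at -0.08 ± 0.16 (SE, edgeR adjusted p = 0.736).

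The largest rises outside the 40 genes were those of Apcdd1, a membrane inhibitor of Wnt (1.95 ± 0.26, SE, edgeR adjusted p = 0.00096), and Ccn4, a matricellular target gene (1.91 ± 0.35, SE, edgeR adjusted p = 0.00384). Tnfrsf11b, which encodes the osteoclast inhibitor osteoprotegerin, followed at 1.87 ± 0.51 (SE, edgeR adjusted p = 0.019) from 0.245, 0.428, 0.835 and 0.144 CPM to 1.01, 1.85, 2.57 and 0.588 CPM, and Tcf7l1 at 1.85 ± 0.27 (SE, edgeR adjusted p = 0.00145). For Tnfrsf11b that is 3 to 16 reads a library fed AL and 11 to 57 under CR, and its lowest CR library lay within the AL range. Besides Lgr5 the falls were those of Draxin, another Wnt inhibitor (-0.84), Cd44 (-0.37) and the corepressor Tle4 (-0.25), with edgeR adjusted p of 0.0321, 0.031 and 0.0414. Of the β-catenin partners, Tcf7 rose by 1.42 ± 0.14 (SE, edgeR adjusted p = 0.000177) with no overlap between diets, and Lef1 was at -0.38 ± 0.28 (SE, edgeR adjusted p = 0.33). Which cells of the plug held the Tcf7 and Lef1 RNA was not tested. Nkd1, an inducible brake on the pathway, was at 0.49 ± 0.25 (SE, edgeR adjusted p = 0.15).

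The next question was what CR did where BMAds lacked the lipase. In BMAd-Pnpla2-/- plugs 7 of the 35 genes were called under CR, beside 11.6% of all genes. They were 6 that rose (Fzd3, Fzd4, Rspo3, Wnt4, Wnt5a and Wnt9b), beside 6.01% of all genes, and Sfrp4, which fell, beside 5.57%. With a log2 fold change beyond 1 as well there were 6, beside 3.52%. The median log2 fold change was 0.67 over the 35 genes and 0.05 over all genes. Of the 7 called, 6 were also called in BMAd-Pnpla2+/+ plugs, which is 85.7% of the shorter list and 31.6% of the longer one. All 18 genes that rose in BMAd-Pnpla2+/+ were fitted above 0 in BMAd-Pnpla2-/- as well. Of the 35 genes, 32 had the same sign in both genotypes, beside 71.4% of all genes. The groups were separate for 17 of the 35 genes, beside 37.8% of all genes, and in BMAd-Pnpla2+/+ for 12, beside 22.7%.

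Fzd4 was at 30.0, 56.2 and 32.6 CPM in the BMAd-Pnpla2-/- AL libraries and 85.5, 124 and 155 CPM in the CR libraries (log2 fold change 1.62 ± 0.35, SE, edgeR adjusted p = 0.0158). Fzd3 was at 1.76, 2.4 and 1.02 CPM and 5.82, 3.52 and 4.13 CPM, a log2 fold change of 1.37 ± 0.33 (SE, edgeR adjusted p = 0.0207). Sfrp4 fell from 67.8, 93.3 and 69 CPM to 29.5, 45.6 and 27.8 CPM, a log2 fold change of -1.16 ± 0.25 (SE, edgeR adjusted p = 0.0148). In these 3 genes no AL library overlapped a CR library. Wnt5a went from 1.54, 3.84 and 1.88 CPM to 5.5, 5.81 and 6.96 CPM (1.33 ± 0.33, SE, edgeR adjusted p = 0.0243), and Rspo3 from 2.75, 7.2 and 2.89 CPM to 9.34, 12.2 and 12.8 CPM (1.41 ± 0.39, SE, edgeR adjusted p = 0.0357). Wnt4 went from 3.86, 7.1 and 6.38 CPM to 7.42, 12.7 and 14.3 CPM (0.99 ± 0.30, SE, edgeR adjusted p = 0.0496), at the edge of the threshold. All 3 were separate between diets, and AL replicate 2 was the highest AL library in each. The calls rest on few libraries. Without CR replicate 3 none of the 35 genes was called, and without AL replicate 1 or AL replicate 3 only Sfrp4 was. Without CR replicate 2 only Fzd3, Fzd4 and Sfrp4 were called. A smaller group weakens the test for every gene, and the loss over all genes is not given here.

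Wnt9b had no read in any of the 3 BMAd-Pnpla2-/- AL libraries. Under CR it was at 0.0534, 1.12 and 1.04 CPM, which is 1 to 21 reads, and its mean of 0.739 CPM was at least 4.47-fold higher than the level that 3 reads in an AL library would give (edgeR adjusted p = 0.0329). Floors of this kind cover counting error only. In BMAd-Pnpla2+/+ the same gene was at 0.245, 0, 0.0522 and 0 CPM fed AL and 0.24, 0.509, 0.902 and 0.321 CPM under CR and was not called. It is a ligand best known from kidney and face development.

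Genes that rose in BMAd-Pnpla2+/+ and were not called in BMAd-Pnpla2-/- kept their sign. Dkk3 was at 2.97, 6.94 and 5.25 CPM fed AL and 8.22, 15.7 and 12.6 CPM under CR (1.26 ± 0.39, SE, edgeR adjusted p = 0.0517). Fzd1 was at 19.9, 34.9 and 18.9 CPM and 36.9, 42.2 and 51.9 CPM (0.83 ± 0.30, SE, edgeR adjusted p = 0.0824), and Fzd8 at 3.8, 5.98 and 4.77 CPM and 6.78, 9.86 and 10.3 CPM (0.89 ± 0.31, SE, edgeR adjusted p = 0.0791). These 3 were separate between diets and missed the threshold. Wnt11 was at 0.22, 0.374 and 0.268 CPM and 0.801, 0.959 and 0.597 CPM, separate at 4 to 7 and 12 to 18 reads, a log2 fold change of 1.43 ± 0.55 (SE, edgeR adjusted p = 0.106). Wnt9a was at 0.11, 0.961 and 0.804 CPM and 1.17, 1.97 and 2.58 CPM (1.60 ± 0.61, SE, edgeR adjusted p = 0.102), also without overlap. Lrp6 was at 53.8, 60.1 and 46.3 CPM and 63.4, 65.9 and 78.8 CPM (0.38 ± 0.14, SE), and Fzd5 at 21.8, 31.6 and 22.8 CPM and 34.5, 36 and 34.4 CPM (0.46 ± 0.23, SE). Both were separate between diets and not called, with edgeR adjusted p of 0.0862 and 0.193.

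In the remaining 6 of the 19 genes the diets overlapped. Axin2 was at 4.41, 7.1 and 5.84 CPM fed AL and 5.44, 6.45 and 7.36 CPM under CR, with a log2 fold change of 0.15 ± 0.29 (SE, edgeR adjusted p = 0.775) and a 95% interval of -0.47 to 0.77. Lrp5 was at 88.6, 121 and 91.7 CPM and 96.2, 116 and 128 CPM (0.18 ± 0.25, SE, 95% interval -0.36 to 0.71). Fzd2 was at 1.54, 2.67 and 1.5 CPM and 2.56, 4.64 and 3.08 CPM (0.84 ± 0.44, SE). None of these passed, with edgeR adjusted p of 0.682 for Lrp5 and 0.226 for Fzd2. Sfrp1 was at 17, 31.8 and 20.2 CPM and 24.2, 38.7 and 42.6 CPM, Sfrp2 at 0.716, 2.93 and 1.66 CPM and 2.56, 3.84 and 4.72 CPM, and Sfrp5 at 0.661, 1.39 and 0.214 CPM and 0.961, 2.61 and 2.49 CPM. Their log2 fold changes were 0.61, 1.06 and 1.41 with edgeR adjusted p of 0.26, 0.247 and 0.166. Wif1 was at 28.2, 62.1 and 46.9 CPM and 24.7, 44 and 37.9 CPM, and as in the controls the diets could not be told from each other (-0.36 ± 0.36, SE, edgeR adjusted p = 0.548). Rspo1, which reached the filter through AL libraries alone, was lower under CR and separate between diets. It was not called (-1.84 ± 0.71, SE, edgeR adjusted p = 0.105). Of the 62 other pathway genes 8 rose and 1 fell in BMAd-Pnpla2-/- plugs (edgeR), where 6.01% of all genes rose and 5.57% fell. Among them were Lgr4 (1.08), Znrf3 (0.73), Apcdd1 (1.64) and Ccn4 (1.47) upward and Lgr5 (-1.52) downward.

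**Figure D3:**
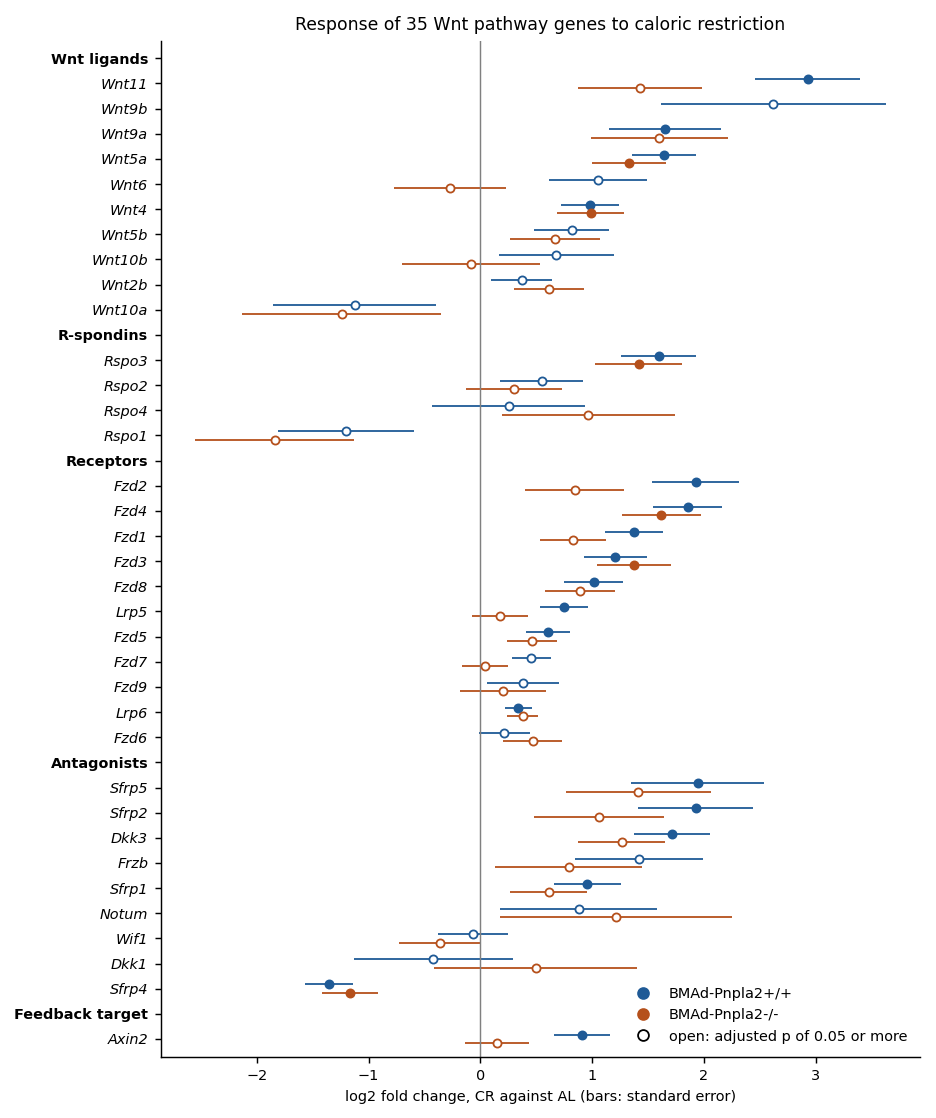
Fitted log2 fold change of CR against AL, with its standard error, for the 35 genes tested, in BMAd-Pnpla2+/+ (blue) and BMAd-Pnpla2-/- (orange); filled points have an adjusted p under 0.05. Wnt9b in BMAd-Pnpla2-/- is left out because its AL libraries had no reads. On the TMM scale receptors all lie to the right of 0 in both genotypes and Sfrp4 lies to the left in both.

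The design also asked whether the genotypes differed, within each diet and in their response. Fed AL, none of the 35 genes was called by edgeR, beside 0% of all genes. None had an unadjusted p under 0.05 either, beside 3.97% of all genes, and DESeq2 called 0. The share of all genes that DESeq2 called is not given, so its 0 cannot be set against that share. No gene was separate between genotypes, beside 5.45% of all genes. The 95% interval of the log2 difference was -1.01 to 0.40 for Fzd4, -0.39 to 0.16 for Lrp6, -0.46 to 0.53 for Sfrp4 and -0.52 to 0.95 for Wif1, and these libraries do not tell apart differences within those bounds.

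Under CR 27 of the 35 genes were fitted lower in BMAd-Pnpla2-/- than in BMAd-Pnpla2+/+ plugs, with a median log2 difference of -0.38 beside -0.01 over all genes. None was called by edgeR, beside 0.0171% of all genes, and DESeq2 called 1, Lrp5. DESeq2 called far more of all genes than edgeR in this comparison, as counted in the last section. At an unadjusted p under 0.05 there were 2 genes, beside 23.2% of all genes. They were Lrp5, at -0.67 ± 0.24 (SE, edgeR adjusted p = 0.127), and Wnt11, at -1.17 ± 0.44 (SE, edgeR adjusted p = 0.145). No gene was separate between genotypes, beside 16.8% of all genes. This comparison shares the BMAd-Pnpla2+/+ CR libraries with the diet comparison above. Fzd4 had a mean of 177 ± 68.7 CPM (SD, n = 4) in BMAd-Pnpla2+/+ CR and 122 ± 35.1 CPM (SD, n = 3) in BMAd-Pnpla2-/- CR, and Sfrp4 had 29.4 ± 10.1 CPM (SD, n = 4) and 34.3 ± 9.82 CPM (SD, n = 3). For Fzd4 the 95% interval of the log2 difference was -1.24 to 0.16, and for Sfrp4 it was -0.28 to 0.72.

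The difference between the genotypes in their response to CR was tested directly as an interaction. It was called in none of the 35 genes by edgeR, beside 0% of all genes, and DESeq2 called 0. For DESeq2 the share of all genes called is again not given. At an unadjusted p under 0.05 there was again no gene, beside 10.4% of all genes. Of the 19 genes called in BMAd-Pnpla2+/+, 16 had a smaller fitted change in BMAd-Pnpla2-/-. The 19 were picked on their BMAd-Pnpla2+/+ response, so this count is not a fair comparison of the genotypes. The part of that selection in it was not tested. Of the 35 interaction terms 25 were below 0 and 10 above 0, beside 50.1% of all genes above 0. Axin2 had an interaction of -0.76 ± 0.38 on the log2 scale (SE, edgeR adjusted p = 0.506), Wnt11 of -1.50 ± 0.75 (SE, edgeR adjusted p = 0.504) and Fzd4 of -0.23 ± 0.46 (SE, edgeR adjusted p = 0.87). Their 95% intervals were -1.58 to 0.06, -3.11 to 0.10 and -1.22 to 0.75. The counts of 19 and 7 called genes therefore do not show that the genotypes responded differently.

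Libraries within BMAd-Pnpla2+/+ CR were not alike, and the rise of these genes followed that split. Replicates 2 and 3 were both above replicates 1 and 4 in 27 of the 35 genes, beside 27.7% of all genes tested. They were so in 17 of the 18 genes that rose. Those 18 were called for being high in this same group, and the share among all genes that rose is not given. The same 2 libraries had the most stromal reticular marker RNA (the 6 markers summed to 9232 and 8466 CPM, against 5774 and 5070 CPM in replicates 1 and 4). They had the least erythroid RNA, at 9773 and 10062 CPM against 30414 and 47680 CPM, and the least neutrophil RNA, at 5955 and 6338 CPM against 10186 and 9457 CPM. Without both of them, 2 of the 19 genes were still called, Sfrp4 and Wnt11, in a group then reduced to a pair of libraries. Wnt11 had reached the filter through CR libraries alone. The fitted changes of all 19 kept their direction. That of Fzd4 was then 1.35 (edgeR adjusted p = 0.0504), that of Wnt5a 1.21 (edgeR adjusted p = 0.057), that of Fzd2 1.14 (edgeR adjusted p = 0.0845) and that of Fzd1 0.90 (edgeR adjusted p = 0.0724). Others fell further, such as Sfrp2 to 0.75 and Fzd5 to 0.17. Without replicate 3 alone there were 10, and without replicate 2 alone 11. Without replicate 4 there were 24, and without BMAd-Pnpla2+/+ AL replicate 3 there were 11. A smaller group weakens the test for every gene, so the counts after removal do not set these genes apart from others.

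Cell type markers moved with diet as well. The adipocyte sum was 662 to 1755 CPM fed AL and 2663 to 6316 CPM under CR in BMAd-Pnpla2+/+ plugs, and 327 to 802 CPM against 1599 to 3001 CPM in BMAd-Pnpla2-/- plugs. All 6 adipocyte markers rose with CR in both genotypes. In BMAd-Pnpla2+/+ plugs 3 of 6 osteoblast, 2 of 6 stromal reticular, 4 of 5 endothelial and 4 of 4 osteoclast markers rose and 5 of 6 neutrophil markers fell, where 15% of all genes rose and 10.9% fell. In BMAd-Pnpla2-/- plugs 0, 1, 0 and 0 of these rose and 1 neutrophil marker fell, where 6.01% of all genes rose and 5.57% fell. Fewer calls did not mean smaller changes throughout: the median log2 fold change of the osteoclast markers was 1.82 in BMAd-Pnpla2+/+ and 1.98 in BMAd-Pnpla2-/-, where their sum was 95.5 to 113 CPM fed AL and 271 to 289 CPM under CR. Medians of the endothelial markers were 0.77 and 0.46, and those of the osteoblast markers 0.82 and 0.35. Of 5 T cell markers 3 rose in BMAd-Pnpla2+/+ and 2 in BMAd-Pnpla2-/- plugs, with medians of 0.85 and 0.31. Of 6 B cell markers 2 fell in each genotype, with medians of -0.60 and -1.13.

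Of the markers of tissue around the marrow, 1 of 3 tendon or periosteum markers tested rose in BMAd-Pnpla2+/+ and 0 in BMAd-Pnpla2-/-, and no chondrocyte or skeletal muscle marker was called in either. The tendon or periosteum sum was 12.6 to 28.1 CPM fed AL and 41.2 to 152 CPM under CR in BMAd-Pnpla2+/+ plugs, and 11.1 to 21.6 CPM and 39.6 to 54.5 CPM in BMAd-Pnpla2-/- plugs. The chondrocyte sum was 47.8 to 116 CPM and 84.1 to 382 CPM, and 25.1 to 63.5 CPM and 89.6 to 136 CPM. Skeletal muscle markers summed to 102 CPM in BMAd-Pnpla2-/- CR replicate 3, and to 6.72 to 34.5 CPM in the other 13 libraries. Without that replicate none of the 35 genes was called in that genotype, and without AL replicate 1 or AL replicate 3 only Sfrp4 was. A link between the muscle RNA and the calls was not tested. None of the adipocyte, osteoblast, stromal, endothelial or neutrophil markers was at 0 in any library, while 1 osteoclast, 1 tendon or periosteum, 2 chondrocyte and 2 skeletal muscle markers were at 0 in some library. With libraries scaled to the stromal reticular sum in place of TMM, 9 of the 35 genes were called in BMAd-Pnpla2+/+ (Dkk3, Fzd1, Fzd2, Fzd4, Rspo3, Sfrp2, Sfrp4, Wnt5a and Wnt11) and 5 in BMAd-Pnpla2-/- (Fzd4, Rspo3, Sfrp4, Wnt5a and Wnt9b). That scaling moved the median of all genes to -0.41 and -0.22 on the log2 scale. The share of all genes called with it is not given, so the 9 and 5 cannot be set against that share. The part of the other cell types in the changes of these genes was not tested.

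**Figure D4:**
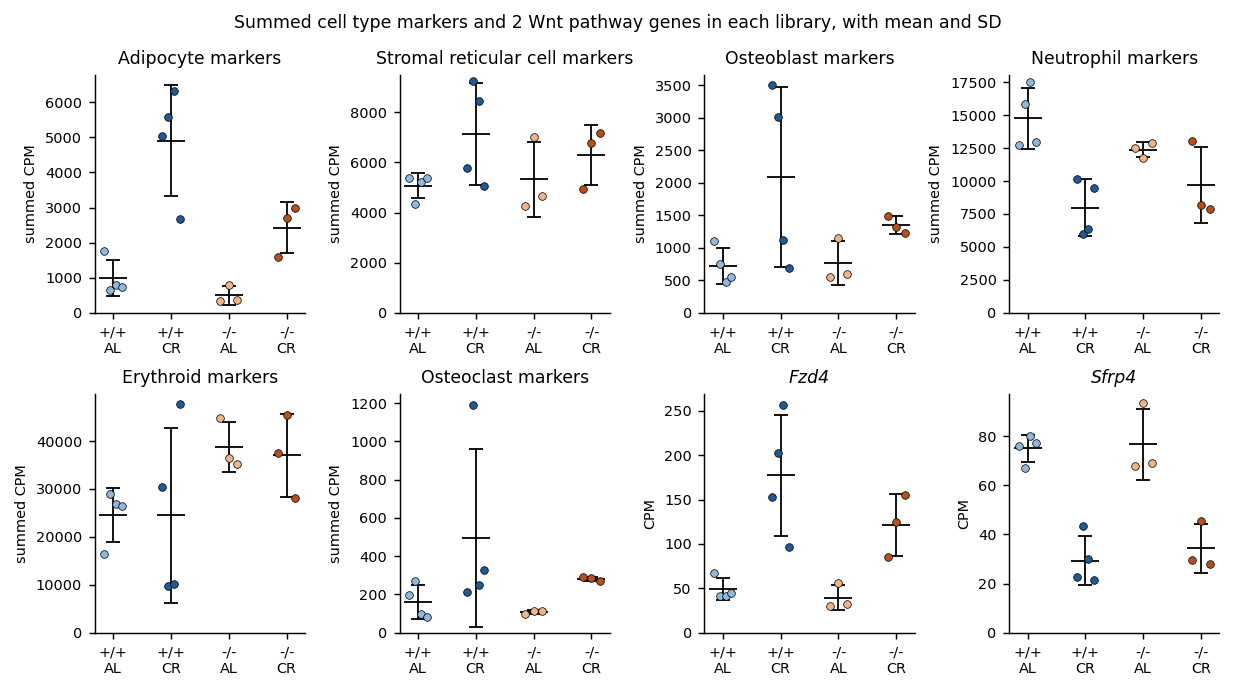
Summed CPM of markers of 6 cell types, and CPM of Fzd4 and Sfrp4, in every library, with the mean and SD of each group (linear axes from 0). Adipocyte marker RNA is higher under CR in both genotypes, and BMAd-Pnpla2+/+ CR replicates 2 and 3 are high for stromal markers and Fzd4 and low for erythroid and neutrophil markers.

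Strand altered what could be read of a few genes. In the 11 libraries that kept strand, 34 of the 40 genes had at least 100 strand-assigned reads, and the median share on the strand opposite to the gene was 1.29%. In 3 of them it was above 10%: Wnt2b at 90.6%, Notum at 18.3% and Sfrp5 at 13.8%. Wnt2b lies on chr3:104945272-104961921 of mm10, and its exons overlap no other annotated gene, yet 259 of its reads were on the opposite strand and 27 on its own. The deposited matrix held reads of the gene's own strand for those 11 libraries and of both strands for the 3 BMAd-Pnpla2-/- CR libraries. Its Wnt2b counts were therefore 0 to 8 in the 11 and 32, 27 and 43 in the 3. Counting both strands everywhere gave 16 to 44 in the 11. In the matrix Wnt2b was called higher with CR in BMAd-Pnpla2-/-, at a log2 fold change of 4.49 (edgeR adjusted p = 0.0066), and higher than in BMAd-Pnpla2+/+ under CR, at 3.20 (edgeR adjusted p = 0.0134). On both strands these values were 0.61 (edgeR adjusted p = 0.217) and 0.21 (edgeR adjusted p = 0.69), and neither was called. The both-strand values rest mostly on opposite-strand reads, so they do not measure RNA of Wnt2b itself.

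Antisense neighbours acted the other way, because reads over genes of both strands go unassigned when strand is ignored. Counts of both strands were below those of the gene's own strand in 5 genes by more than 10%, at ratios of 0.68 for Notum, 0.70 for Rspo3, 0.78 for Fzd5, 0.88 for Axin2 and 0.89 for Sfrp2. Rspo3 shows the size of this: with the matrix counts its CR response in BMAd-Pnpla2-/- was 0.96 on the log2 scale (edgeR adjusted p = 0.104), against 1.41 (edgeR adjusted p = 0.0357) on both strands. Levels per length of these 5 genes are understated for the same reason. That of Wnt2b is overstated, since its both-strand counts were 10.5 times its own-strand counts in the 11 libraries that kept strand.

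**Figure D5:**
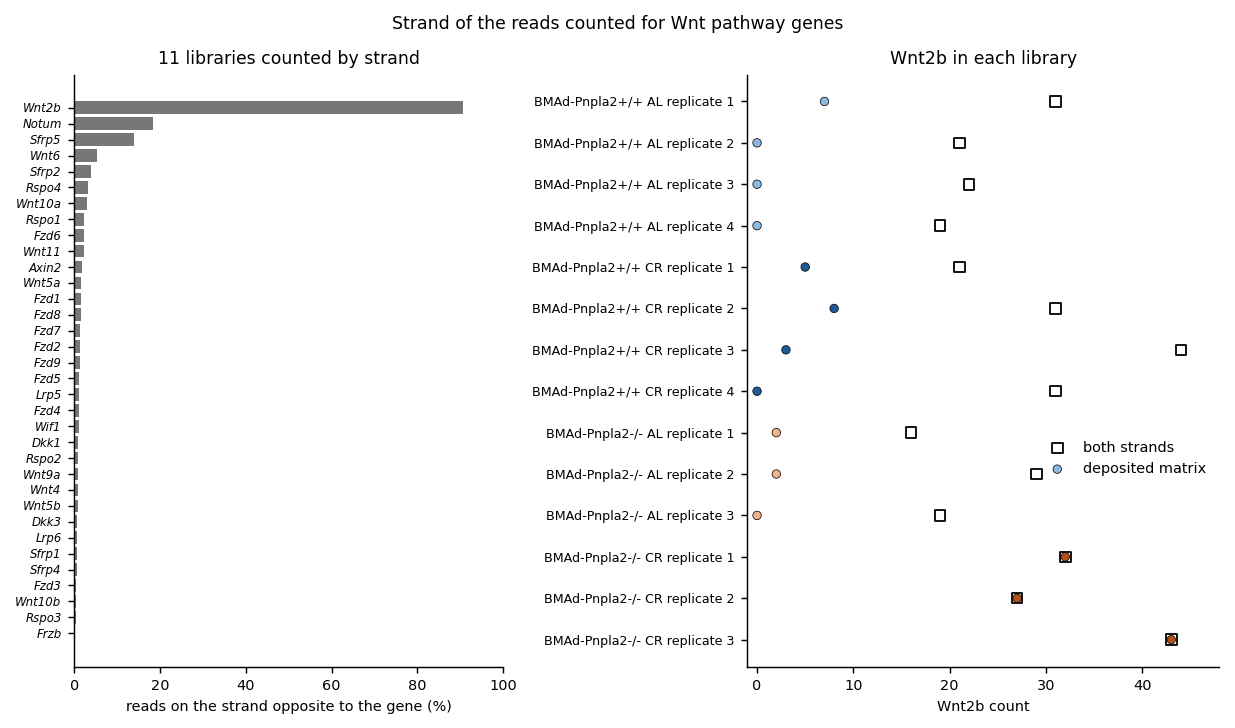
Left, share of strand-assigned reads on the strand opposite to each of 34 genes in the 11 libraries that kept strand (bars from 0). Right, Wnt2b counts of each library in the deposited matrix (filled) and over both strands (open squares); the matrix counts of the 3 BMAd-Pnpla2-/- CR libraries coincide with their both-strand counts and stand above the matrix counts of the other 11.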

How the data were processed

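RNA of 14 pooled distal tibial marrow plugs was sequenced by the study as strand-specific mRNA libraries with paired reads, checked with FastQC 0.11.9 and aligned to mm10 with STAR (version not given in the sources used here). The authors deposited whole-number read counts per gene, as 1 file per sample with counts over both strands and over each strand, and as 1 matrix of 23441 genes. The matrix held own-strand counts for 11 samples and both-strand counts for the BMAd-Pnpla2-/- CR samples. Both-strand counts of all 14 files were therefore used, restricted to the genes of the matrix. Rows that name no gene held 21.1% to 25.6% of read pairs and were left out.

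Genes with too few reads were removed with filterByExpr (in effect at least 0.518 CPM in 3 libraries), which left 17494. Counts were scaled by TMM and tested with edgeR 4.0.16 (R 4.3.3), using the robust quasi-likelihood test on all 4 groups together. P-values were adjusted by the Benjamini-Hochberg method over all genes tested, with a threshold of 0.05, and a second criterion was a log2 fold change beyond 1. Replicates were separate pools of a pair of mice, so p-values measure the spread between these pools. The script was tested on simulated data. Figures were drawn with matplotlib 3.10.9.

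Members and gene lists were chosen with earlier results of these data known. Values in every sample are given for each gene called in any comparison and for the gene highest per length in each class. Of the other pathway genes, the 4 largest and 4 smallest changes and a short fixed list are named. Alternatives were other scalings, other filters, DESeq2 1.42.0, a fit that was not robust, the matrix counts, own-strand counts, all genes of the files, separate groups, a replicate block and the removal of each library. Promoters are from RefSeq, GRCm38.p6. They matched 25 of the 40 genes. Depth, at 18658806 to 21339006 reads, leaves genes below about 1 CPM with some 20 reads or fewer.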

Additional observations from a re-analysis of the deposited data

Results flagged for a closer look

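In 70 groups of 4 libraries, 5 libraries stood further from the other 3 than Dixon's 95% limit for the gap over the range allows, and chance alone gives about 1 in 20. Notum was at 1.979 CPM in BMAd-Pnpla2+/+ AL replicate 2, where the other 3 were at 0.0961 to 0.392 CPM. Wnt10a was at 2.035 CPM in BMAd-Pnpla2+/+ CR replicate 2, against 0.271 to 0.428 CPM. Wnt9a was at 1.07 CPM in BMAd-Pnpla2+/+ CR replicate 4, below the others at 3.24 to 3.29 CPM. Fzd4 at 67.7 CPM (41.8 to 44.7 CPM elsewhere) and Fzd7 at 19.04 CPM (16.5 to 16.9 CPM) were high in the same library, BMAd-Pnpla2+/+ AL replicate 1.

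Reads on the strand opposite to Wnt2b made up 90.6% of its strand-assigned reads in the 11 libraries that kept strand. No gene was singled out for a difference between the genotypes in the response to CR.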

How the results depend on the processing

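Scaling to the stromal reticular sum lowered the median of all genes to -0.41 in BMAd-Pnpla2+/+ and so put Lrp6, the smallest called change, at -0.12, a turn of about the size of the common shift. No other called change turned its direction under the alternatives run. In BMAd-Pnpla2+/+ plugs 9 of the 19 genes called with CR (Rspo3, Dkk3, Sfrp4, Wnt5a, Wnt11, Fzd1, Fzd2, Fzd3 and Fzd4) were called in all 25 alternatives run besides the pair added later, and Lrp6 was lost in 18 of the 25. None of the 7 genes called in BMAd-Pnpla2-/- was called in all of them. Of the 9 genes named, Wnt11 reached the filter of the main fit through CR libraries alone. Leaving out 1 library gave 10 to 24 genes called and 9 to 19 past both criteria in BMAd-Pnpla2+/+, and 0 to 10 and 0 to 8 in BMAd-Pnpla2-/-. It gave 0 to 2 genes between genotypes under CR (Lrp5 and Wnt11, without BMAd-Pnpla2+/+ CR replicate 4) and 0 to 0 fed AL and for the difference of the responses. Between genotypes under CR, DESeq2 called 1 gene, Lrp5, and 1598 of all genes where edgeR called 3, and the cause was not tested. The deposited matrix counts called 1, Wnt2b, and 2451 of all genes, in a comparison where their strands differ between the groups. Apart from these DESeq2 and matrix counts, the counts in this section are given without those of all genes. A smaller group weakens the test for every gene.

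After seeing the data, 2 alternatives were added. Without BMAd-Pnpla2+/+ CR replicates 2 and 3, the genes called were 2 in BMAd-Pnpla2+/+, with 2 past both criteria, and 12 in BMAd-Pnpla2-/-. Scaling to the stromal reticular sum gave 9 called and 8 past both criteria in BMAd-Pnpla2+/+.

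With the replicate number as a block, 17 genes were called with CR in BMAd-Pnpla2+/+, 7 in BMAd-Pnpla2-/-, and 0 in the other comparisons. Of 19 pairs of libraries with the same number, 7 had a correlation of deviations above 0.1, over a range of -0.374 to 0.326. Their median was 0.0174, and that of pairs with other numbers was -0.0094, so no clear pairing by number was seen. A batch shared by libraries was not tested. Genes under about 1 CPM (Wnt11, Wnt9b, Sfrp5) carry few reads.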
